A study of Solanum tuberosum with 72 samples.

Results

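The timing of the cold response was compared between the leaf and the root of potato seedlings, spot by spot on a spotted DNA array. The members are the spots with at least 2 measured values in each of the 8 groups made by tissue (leaf or root), time (27 or 3 h) and condition (cold or control). This rule kept 15081 of the 32448 spots of the table, on 24 of its 72 arrays. Of these, 14688 could be tested and 393 could not, because a tissue and time had fewer than 2 experiments with both a cold and a control value.

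Plants that sense a drop in temperature pass the signal on through calcium, reactive oxygen and protein kinase cascades, and transcription factors of the WRKY, NAC and Dof families are among the proteins that act downstream. Cold also slows the use of sugars more than light capture, so that genes of starch and sugar metabolism, photosystems and translation are adjusted over hours and days. Leaf and root meet cold differently, since the leaf has chloroplasts and the root takes up water and minerals from the chilled medium and depends on sugar from the shoot. Methionine-derived compounds such as polyamines and ethylene are made in both organs and are known stress metabolites in plants.

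Seedlings of the variety Gilroy, raised from true seed, grew for 5 weeks on floating rafts at 25 °C with 16 h of light. Cold began when the hydroponic medium was exchanged for medium already at 4 °C and the boxes were set on ice, and control plants also had their medium exchanged. The cold groups were leaf and root at 27 h, at 3 h and, for a separate comparison, at 9 h. Each tissue and time had its control group, with 3 arrays per group from 3 independent experiments. Leaf and root arrays of heat (35 °C) and of salt at 27 and 3 h, also 3 per group, serve only a later side-by-side comparison. "Leaf" stands for all aerial tissue, and a sample pooled 6 plants, so differences between single plants cannot be seen. Each array set the Cy3-labelled RNA of a sample against Cy5-labelled RNA of a pool of unstressed plants of the same tissue, time and experiment. Ratios to a pool of the same tissue carry no level of a tissue marker, so the tissue labels could not be checked against markers.

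All values below are log2 ratios as deposited, or differences of them. The numerator of the ratio is not stated, so a value is called positive or negative and nothing is said about a rise or fall of RNA. The cold change is the log2 ratio of a cold array minus that of the control array with the same experiment number. The timing contrast is the cold change at 27 h minus that at 3 h, and the interaction is the timing contrast of leaf minus that of root. Arrays had 16631 to 20094 measured spots, the median SD between the replicates of a group was 0.14 to 0.20, and over the tested spots the array medians lay between -0.01 and 0.01.

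The interaction was called (limma, Benjamini-Hochberg adjusted p under 0.05) for 2439 of 14688 spots, 16.6% of those tested. It was positive for 981 of them (6.68% of all tested) and negative for 1458 (9.93%). Negative interactions were the larger ones: a size of 4-fold or more was reached by 36 of the positive and 363 of the negative spots, and a size of 16-fold by 0 and 34. The most negative value was -6.95 and the most positive 2.75, beside an SD of 0.81 over all tested spots and a median of 0.04. Among the 2031 called spots with a complete contrast in all 3 experiments, 2027 had the same sign in all 3, against 6455 of 11476 tested spots (56.2%); the call used these values, so the count describes it. Across spots, the interactions of experiments 1 and 2 correlated with r = 0.74, those of 1 and 3 with 0.63 and those of 2 and 3 with 0.68 (11476 spots, which share arrays and often a duplicate). In whole tissues fewer cells of a type and less RNA per cell cannot be told apart.

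With quantile scaling of the arrays, 424 spots were called and 22.6% of them were positive, against 40.2% on the values as deposited; 421 of the 424 were among the 2439 with the same sign. That scaling gives control arrays, whose SD across spots was 0.17 to 0.39, the same spread as cold arrays, whose SD was 0.44 to 0.76. Leaving out experiment 1, 2 or 3 as a whole left 1179, 753 or 1150 calls, and a fit to the 24 arrays without pairing by experiment gave 1618.

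**Figure D1:**
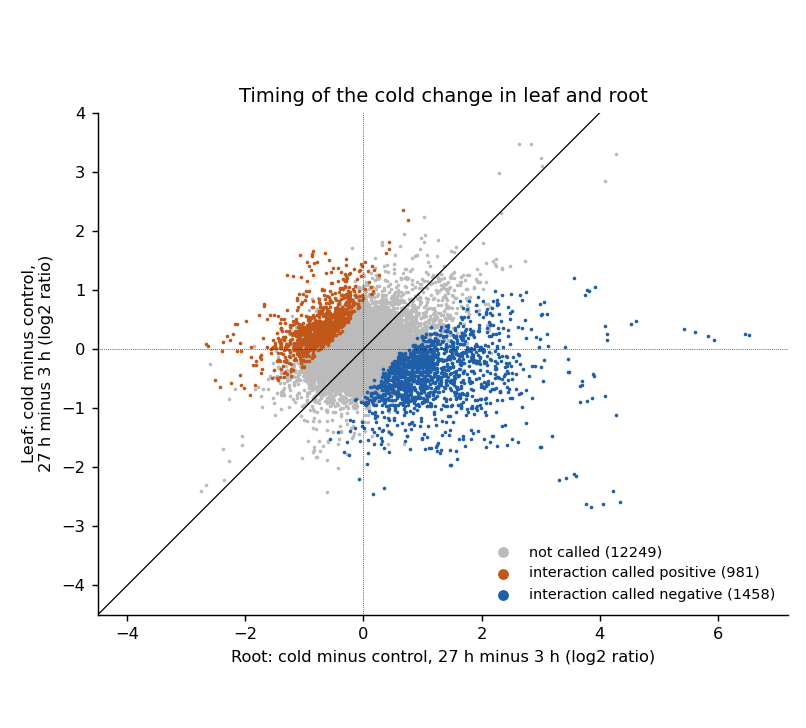
Each point is 1 of 14688 tested spots, with the root timing contrast (27 h minus 3 h of cold minus control, log2 ratio) on the horizontal axis and the leaf timing contrast on the vertical axis; the diagonal marks equal timing. Spots called negative (1458) extend far to the right at leaf values near or below 0, while spots called positive (981) lie to the left of the diagonal over a shorter range.

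Root had more called timing contrasts than leaf. The root timing contrast was called for 3936 tested spots (26.8%) and the leaf timing contrast for 694 (4.72%). Without experiment 2 these counts were 1661 in root and 1 in leaf; without experiments 1 and 3 they were 2996 and 1693 in root, and 138 and 449 in leaf. Of the 2439 spots with a called interaction, 1738 (71.3%) had a called root contrast and no called leaf contrast, 218 (8.94%) the reverse, 127 (5.21%) both with opposite signs, 7 both with the same sign and 349 (14.3%) neither. A call in one tissue and not in the other is no test of the difference; the interaction is that test. When leaf and root contrasts were both called with opposite signs, 111 of the 127 were negative in leaf and positive in root.

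Cold changes at each time show what the positive and negative interactions consist of. Over the 981 positive spots the median cold change was 0.07 in leaf at 27 h and -0.30 in leaf at 3 h, and it was -0.59 in root at 27 h and 0.12 in root at 3 h. Over the 1458 negative spots it was 0.13 in leaf at 27 h and 0.54 in leaf at 3 h, and 0.95 in root at 27 h and -0.12 in root at 3 h. In both classes the median was largest in size in root at 27 h, next in leaf at 3 h, and near 0 in leaf at 27 h and root at 3 h. These medians are of values that the calls used and are descriptions only. In these spots, chosen for a large interaction, the cold arrays had a median absolute part of 1.09 and the control arrays one of 0.22, beside 0.37 and 0.16 over all tested spots, and the control part was the larger one in 85 of the 2439.

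Called cold changes numbered 4230 in leaf at 27 h (28.8%) and 3600 in leaf at 3 h (24.5%), and 6451 in root at 27 h (43.9%) and 2677 in root at 3 h (18.2%). With quantile scaling the order changed, to 2546 in leaf at 27 h and 3073 in leaf at 3 h, and 3004 in root at 27 h and 2028 in root at 3 h. To compare the size of the timing contrasts without their noise, variances were taken as covariances between different experiments, over 10222 spots complete at all 3 times. The SD across spots so obtained was 0.37 for the leaf timing contrast (0.32 to 0.43 over the 3 pairs of experiments) and 0.64 for the root one (0.60 to 0.67). The correlation of the leaf and root timing contrasts across spots was 0.02. The SD of the interaction was 0.73 (0.69 to 0.75).

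Computed in the same way, the cold change of leaf at 3 h was more like that of root at later times than like that of root at 3 h. Its correlation across the 10222 spots was 0.40 with root at 3 h (0.36 to 0.48 over pairs of experiments), 0.74 with root at 9 h and 0.76 with root at 27 h (0.70 to 0.79). Within root, the cold change at 3 h correlated with that at 27 h by 0.38 and with that at 9 h by 0.37, while 9 h and 27 h gave 0.78. In leaf, 3 h correlated with 27 h by 0.69, and 9 h with 27 h by 0.85. Between the tissues at equal times the values were 0.40 at 3 h, 0.62 at 9 h and 0.61 at 27 h. The lowest value of all was -0.02, for root at 3 h with leaf at 9 h. The correlated values come from different experiments and so share no array and no reference pool, but they share the spots, many of which are duplicates.

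**Figure D2:**
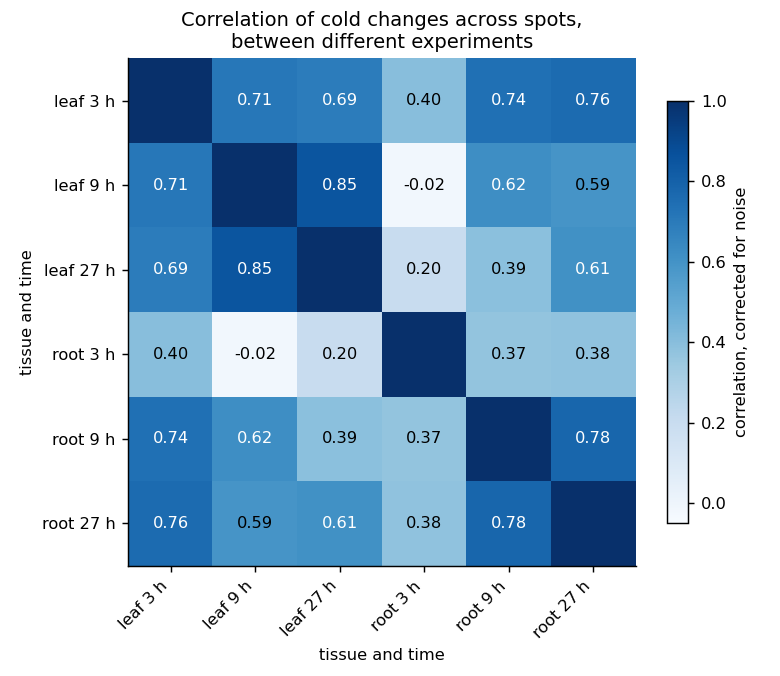
Rows and columns are the 6 tissue and time groups, and each cell gives the correlation across 10222 spots of their cold changes (cold minus control log2 ratio), taken between different experiments and corrected for noise. Root at 3 h stands apart with values of -0.02 to 0.40, while leaf at 3 h reaches 0.74 with root at 9 h and 0.76 with root at 27 h.

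The arrays of 9 h were not used to call the interaction. Over the called positive spots with a 9 h value (963), the median difference of the cold change, leaf minus root, was -0.42 at 3 h, 0.23 at 9 h and 0.67 at 27 h. Over the called negative spots (1348) it was 0.66 at 3 h, -0.30 at 9 h and -0.75 at 27 h. Over all tested spots it stayed at -0.02, 0.02 and 0.04. The medians at 3 and 27 h are far apart because the call chose spots for that distance, and those at 9 h are given as a description. The 9 h difference was nearer to that of 27 h than to that of 3 h in 610 of the 963 positive and 983 of the 1348 negative spots. The same held for 8019 of all 13930 tested spots with a 9 h value, so this lean was not limited to the called spots. At 9 h the difference between leaf and root was itself called for 981 of 13930 spots (7.04%), among which were 63 of the 963 positive and 305 of the 1348 negative ones, so the first of these shares is near that of all spots.

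**Figure D3:**
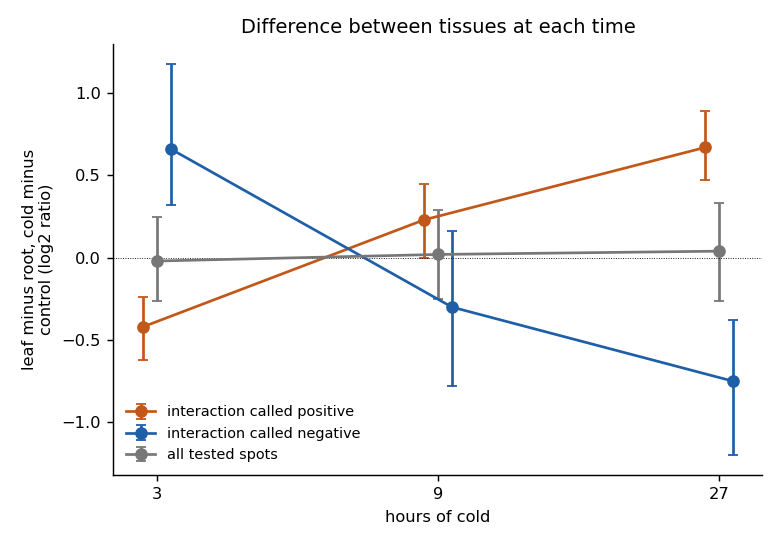
The vertical axis is the cold change of leaf minus that of root (log2 ratio) and the horizontal axis the hours of cold, equally spaced; points are medians and bars the quartiles over spots. The called positive spots have medians of -0.42, 0.23 and 0.67 and the called negative ones 0.66, -0.30 and -0.75 at 3, 9 and 27 h, while all tested spots stay near 0.

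The most negative interactions belonged to a few sets of spots with nearly equal profiles. Spot 139768 was at -6.95 (SE 0.97, limma adjusted p = 0.000328), and spots 160126, 158852, 132086 and 141133 were at -6.69, -6.62, -5.75 and -5.54; over the 24 arrays the 5 profiles correlated with 139768 at r = 0.97 or more, so they can be copies of 1 sequence. On leaf arrays at 27 h spot 139768 was at 0.29, 0.36 and -0.15 under cold, against 0.18, -0.74 and 0.21 in controls. On leaf arrays at 3 h it was at 3.48, 2.36 and 1.47 under cold, against -0.38, -0.51 and -0.41 in controls. In leaf the groups overlapped at 27 h and were well apart at 3 h. Root arrays at 27 h gave 5.58, 4.32 and 3.54 under cold, against -0.94, -1.47 and -0.14 in controls. Root arrays at 3 h gave -0.62, 0.39 and -0.30 under cold, against -2.18, -1.28 and 0.00 in controls. In root all cold arrays of 27 h were above all controls, and at 3 h the groups overlapped while 2 of the 3 controls were strongly negative. At 9 h the cold change of this spot was -1.20 in leaf and 1.81 in root, a difference of -3.0 (SE 0.51, limma adjusted p = 0.00677).

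A second set was set apart by root at 3 h. Spot 154669 had an interaction of -6.29 (SE 0.53, limma adjusted p = 7e-06), with -5.70, -5.40 and -7.75 in experiments 1, 2 and 3, and spots 157880 and 135066, which correlated with it at r of 0.99 or more over the arrays, gave -5.78 and -5.32. Root arrays at 3 h were at -4.64, -4.64 and -5.06 under cold, against 0.73, 0.61 and 0.90 in controls. Root arrays at 27 h were at 1.42, 0.86 and 1.53 under cold, against 0.21, 0.43 and 0.16 in controls. The cold change of root thus turned sign between the times, with no overlap of cold and control arrays at either. In leaf the timing contrast was 0.24 (SE 0.37, limma adjusted p = 0.758), with cold changes of 0.89 at 27 h and 0.65 at 3 h. At 9 h the root was at an intermediate -1.23 and the leaf at 0.49. Below -4 the table of all 72 arrays holds only 5 distinct values, so values near -5 come in coarse steps.

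Positive interactions had smaller values. Among the 8 most positive, spots 134267, 146597, 137374, 162332 and 151602 had root timing contrasts of -2.18, -2.15, -2.38, -2.21 and -1.68, all called. Their leaf contrasts were 0.43, 0.43, 0.12, 0.26 and 0.77, none called. Spots 134267 and 137374 correlated at r = 0.95 over the 24 arrays, so they can be copies of 1 sequence. Spot 162332 was at -2.74, -2.64 and -2.18 under cold on root arrays at 27 h, against -0.23, 0.19 and 0.25 in controls. At 3 h the root arrays of this spot gave -0.49, -0.40 and -0.34 under cold, against -0.09, 0.14 and -0.14 in controls. Its interaction was 2.46 (SE 0.36, limma adjusted p = 0.00049), and in leaf its cold change was -0.88 at 27 h and -1.13 at 3 h, so leaf was negative at both times and root mainly at the later one. Spot 159088 (2.54, SE 0.39, limma adjusted p = 0.00072) differed in that both tissues moved: its cold change was -0.57 in leaf at 27 h and -1.82 at 3 h, and -2.73 in root at 27 h and -1.44 at 3 h.

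A turn of sign within a tissue, with the cold change called at both times, was found for 57 tested spots in leaf (0.388%) and 328 in root (2.23%). Of the 328 root spots, 209 were positive at 27 h and negative at 3 h, and 119 the reverse; 246 also had a called interaction. Of the 57 leaf spots, 17 were positive at 27 h and negative at 3 h, and 40 the reverse, with 41 called. The leaf spots with the largest interactions were the CO spot described further on and spot 137636 (-3.02, SE 0.36, limma adjusted p = 0.000103), whose cold change was -0.61 in leaf at 27 h and 1.10 at 3 h, and 2.22 in root at 27 h and 0.91 at 3 h.

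Agreement in sign was rare where both timing contrasts were called: spots 150545, 131922 and 161185, the 3 of the 7 with the largest interactions, had leaf contrasts of 0.91, 0.93 and 0.81 and root contrasts of 3.75, 2.50 and 2.03. Spot 131922 was positive under cold in leaf at both times (2.78 at 27 h and 1.85 at 3 h) and in root had 1.62 at 27 h and -0.88 at 3 h.

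An annotation table paired 1250 of the tested spots with 1 gene each, 376 genes in all. Of these spots 269 (21.5%) had a called interaction, beside 16.6% of all tested spots. The median interaction of all 1250 was 0.23, against 0.04 over all tested spots. A gene is counted as called here when at least 50% of its tested spots were called and none in the opposite direction: 38 genes were positive, 48 negative, 264 had no called spot and 26 had fewer called spots or both directions. Counts for the functional lists follow, with no test of a list.

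Genes of signalling and transcription were negative where they were called. Of 19 such genes tested, 8 were called negative, 0 positive and 11 not called, and 17 of their 45 spots were called negative beside 9.93% of all tested spots. Their median interaction was -0.53, against 0.04 over all tested spots. The 8 were NAC2, a NAC transcription factor, StWIPK, a wound-induced MAP kinase, StMKP1, a MAP kinase phosphatase, the WRKY transcription factors STWRKY8 and StWRKY16, RBOHC, an NADPH oxidase that makes reactive oxygen, the Dof transcription factor dof1, and BEL5, a BEL1-type transcription factor known for its part in tuber formation.

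NAC2 (spot 148518) had the most negative interaction of the annotated genes, -3.88 (SE 0.52, limma adjusted p = 0.000263), and its duplicate gave -3.85. On leaf arrays at 27 h it was at 0.74, 0.80 and 0.88 under cold, against 0.30, -0.10 and 0.46 in controls, and at 3 h at 1.18, 0.38 and 1.09 under cold, against 0.08, -0.53 and 0.16. On root arrays at 27 h it was at 2.49, 2.19 and 3.19 under cold, against -0.28, 0.23 and 0.42 in controls, and at 3 h at 0.34, -1.51 and -0.41 under cold, against 0.19, 0.01 and 1.18. Cold and control arrays were apart in leaf at both times and in root at 27 h, and they overlapped in root at 3 h. The paired cold change was nevertheless called in root at 3 h (-0.99, SE 0.26, limma adjusted p = 0.016) and not called in leaf at 27 h (0.59, SE 0.26, limma adjusted p = 0.106). The root timing contrast was 3.49 (SE 0.37, limma adjusted p = 1.78e-05) and the leaf one -0.39 (SE 0.37, limma adjusted p = 0.582). At 9 h the cold change was 0.51 in leaf and 1.37 in root, which did not pass the test of their difference (limma adjusted p = 0.212).

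StWIPK (spot 143527) moved in both tissues, in opposite directions. Leaf arrays were at 1.08, 0.89 and 0.34 under cold at 27 h, against -0.27, -0.15 and -0.09 in controls, and at 2.37, 1.84 and 1.81 under cold at 3 h, against -0.23, -0.84 and -0.12. Root arrays were at 2.66, 1.97 and 1.32 under cold at 27 h, against -0.32, -0.10 and -0.45 in controls, and at 0.62, 1.41 and 0.93 under cold at 3 h, against -0.10, 0.11 and 0.48. All 4 cold changes were positive and called, the leaf one larger at 3 h and the root one larger at 27 h, with timing contrasts of -1.46 in leaf (SE 0.33, limma adjusted p = 0.0243) and 1.45 in root (SE 0.33, limma adjusted p = 0.00474). The interaction was -2.91 (SE 0.46, limma adjusted p = 0.000875).

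StMKP1, the phosphatase of such kinases, had cold changes of 1.07 in leaf at 27 h and 1.57 at 3 h, and 1.71 in root at 27 h and 0.56 at 3 h (spot 156814; interaction -1.66, SE 0.33). RBOHC was similar, with 1.05 and 1.74 in leaf at 27 and 3 h and 1.53 and 0.82 in root (spot 145088; interaction -1.40, SE 0.36). Both WRKY genes had near-equal cold changes in leaf at both times: StWRKY16 was at 1.35 at 27 h and 1.27 at 3 h in leaf, and at 1.75 and 0.11 in root (spot 142544; interaction -1.56, SE 0.36). STWRKY8 was at 1.97 and 2.16 in leaf and at 2.69 and 1.35 in root (spot 131718; interaction -1.53, SE 0.48, limma adjusted p = 0.0416), and 3 of its 4 spots were called. In dof1 only root at 27 h stood out, with 1.08 against -0.08 at 3 h, while leaf was at -0.12 and 0.05 (spot 150835; interaction -1.34, SE 0.25). The 2 clones of BEL5 disagreed, with a mean interaction of -1.48 for one and 0.12 for the other. Of 24 alternatives, 15 ended the call of the STWRKY8 spot (-1.93 to -1.01, adjusted p up to 0.369), 4 that of RBOHC, 3 that of StWRKY16 and 1, quantile scaling, those of StWIPK, StMKP1 and dof1. NAC2 remained called in each alternative tried (-4.46 to -2.93, adjusted p at most 0.0156).

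The 11 signalling genes not called included 3 calcium-dependent kinases (CDPK2, CDPK4 and CDPK5), with median interactions of -0.53, -0.58 and -0.13, and the MAP kinases StMPK1, StMPK2, StMPK3 and StMPK4, with -0.17, -0.59, -0.18 and 0.21. StMYB1R-1, a MYB-type factor of the drought response, was at -0.50.

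**Figure D4:**
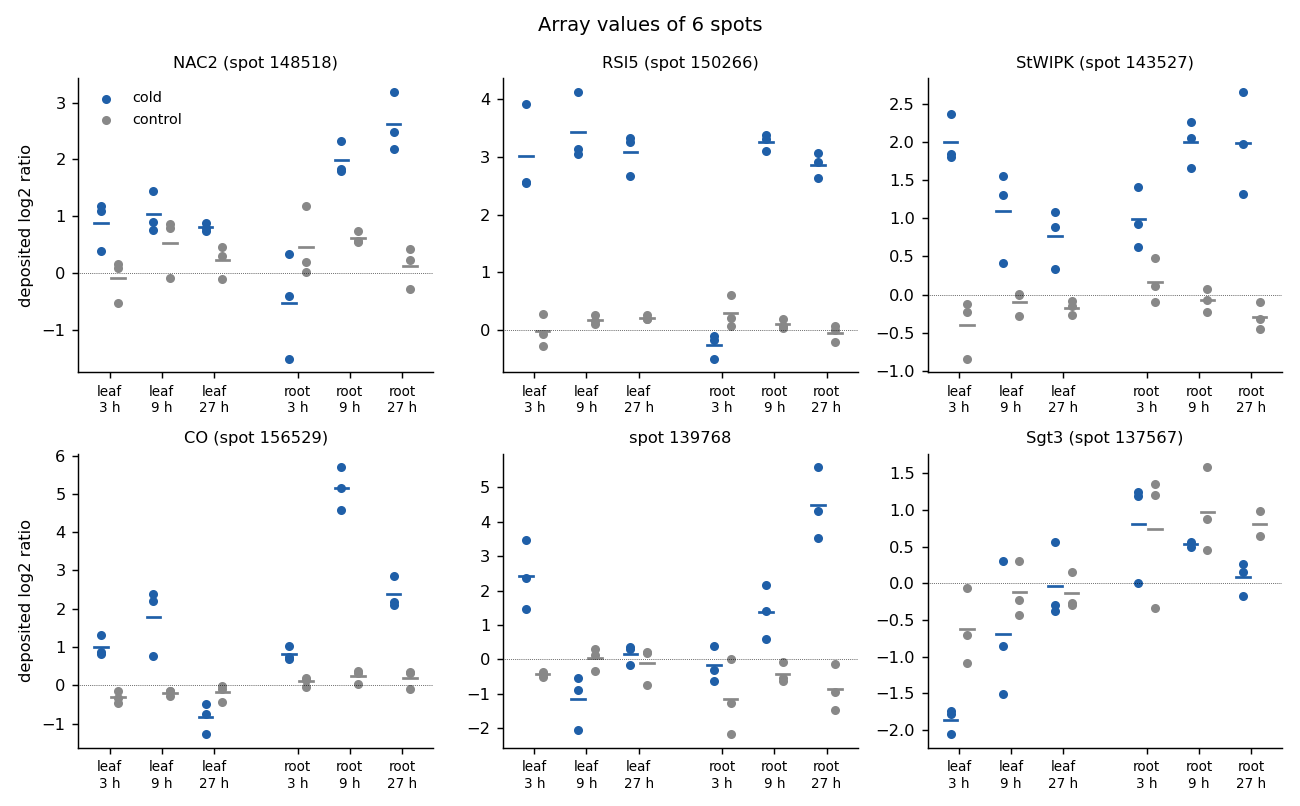
Deposited log2 ratios of 6 spots on single arrays, with 3, 9 and 27 h of leaf on the left and of root on the right of each panel; points are arrays (up to 3 per group), bars are means, blue is cold and grey control. NAC2, RSI5 and StWIPK are high in root under cold at 9 and 27 h but not, or less, at 3 h, CO is highest in root at 9 h, spot 139768 is high in leaf at 3 h and in root at 27 h, and Sgt3 is low in leaf at 3 h.

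RSI5 (spot 150266), an annotated gene outside the lists that was chosen after its values were seen, had a large positive cold change in all groups but root at 3 h. On leaf arrays it was at 3.25, 3.32 and 2.66 under cold at 27 h, against 0.20, 0.19 and 0.26 in controls, and at 3.91, 2.56 and 2.55 under cold at 3 h, against 0.28, -0.27 and -0.06. On root arrays it was at 2.90, 3.06 and 2.63 under cold at 27 h, against -0.20, 0.08 and 0.00 in controls, and at -0.49, -0.17 and -0.10 under cold at 3 h, against 0.21, 0.07 and 0.61. The cold change was near 3 in leaf at both times and in root at 27 h (2.86, 3.02 and 2.90), and in root at 3 h it was -0.55 (SE 0.19, limma adjusted p = 0.0564). Its interaction was -3.62 (SE 0.38, limma adjusted p = 3.7e-05), and at 9 h leaf and root were at 3.25 and 3.15, a difference of 0.10 (SE 0.30).

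CO (spot 156529), the potato CONSTANS gene of day-length signalling, was also chosen after its values were seen, as a gene, though its spot entered by the rule for sign turns. Leaf arrays were at -1.28, -0.74 and -0.49 under cold at 27 h, against -0.10, -0.01 and -0.43 in controls, and at 1.32, 0.81 and 0.86 under cold at 3 h, against -0.14, -0.47 and -0.34. Root arrays were at 2.86, 2.18 and 2.09 under cold at 27 h, against -0.10, 0.33 and 0.34 in controls, and at 0.75, 0.69 and 1.04 under cold at 3 h, against 0.15, -0.03 and 0.19. No cold group overlapped its control, and the leaf cold change had opposite signs at the 2 times, -0.65 at 27 h and 1.31 at 3 h, both called. The leaf change at 27 h (limma adjusted p = 0.0331) came from experiments 1 and 2. In experiment 3 cold and control were close, at -0.49 and -0.43. Root arrays at 9 h were higher than at either other time, at 4.59, 5.15 and 5.69 under cold, against 0.31, 0.37 and 0.04 in controls. The interaction was -3.43 (SE 0.43, limma adjusted p = 0.000152), and at 9 h the cold change of leaf minus that of root was -2.93 (SE 0.45, limma adjusted p = 0.00438). Each cold array was set against a control array harvested at the same time, and a part of the time of day in these values was not tested.

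Methionine and polyamine synthesis gave 2 called genes of 5 tested, both negative. Of 33 spots 15 were called, all negative, beside 9.93% of all tested spots. The median interaction was -1.16, against 0.04 over all tested spots. All called spots were of METK2 and SAMDC, each with several spots and clones. METK2, an S-adenosylmethionine synthetase, was called on all 4 spots of 2 clones. Spot 144577 of METK2 was at 0.33, 0.48 and 0.15 in leaf under cold at 27 h, against -0.18, -0.36 and -0.41 in controls, and at 0.37, 0.89 and 0.48 under cold at 3 h, against -0.67, -0.22 and -0.51. Root arrays were at 1.74, 1.23 and 1.88 under cold at 27 h, against 0.15, -0.25 and -0.30 in controls, and at -0.49, -0.14 and -0.62 under cold at 3 h, against -0.56, -0.38 and -0.49. Cold and control overlapped only in root at 3 h, where the cold change was 0.06, and the interaction was -2.10 (SE 0.28, limma adjusted p = 0.00024), which quantile scaling ended.

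SAMDC, S-adenosylmethionine decarboxylase, which commits S-adenosylmethionine to polyamines, was called on 11 of 16 spots. Of its 8 clones 7 had mean interactions from -1.86 to -0.75 and the eighth 0.43 with no called spot, so that clone differs from the rest. Median cold changes of SAMDC were 0.48 in leaf at 27 h and 0.20 at 3 h, and 1.35 in root at 27 h and -0.32 at 3 h. Its median spot (137619) had an interaction of -1.29 (SE 0.32, limma adjusted p = 0.0155). The value was -2.43 in experiment 3 against -0.76 and -0.68 in experiments 1 and 2, and the call was lost without experiment 3. Of 24 alternatives, 3 ended this call, and over all 24 the interaction spanned -1.59 to -0.11 (limma adjusted p up to 0.905). MS, methionine synthase, had a median of -1.0 and missed the threshold (lowest limma adjusted p = 0.0538), METK1 had -0.40 and the spermidine synthase SpdSy 0.17.

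Starch and sugar genes were mixed: of 21 tested, 3 were called positive, 2 negative and 16 not called. Of 70 spots 12 were called positive, beside 6.68% of all tested spots, and 3 negative, beside 9.93%. The 12 positive spots belonged to UGPase, GAPDH and TPT. The list's median interaction was 0.27, near the 0.23 of all tested spots paired with 1 gene. InvCD141, a cell wall invertase that splits sucrose outside the cell, had an interaction of -2.35 (spot 145493; SE 0.57, limma adjusted p = 0.0123) and its duplicate -2.76. Root arrays of InvCD141 were at 2.21, 2.21 and 2.30 under cold at 27 h, against 0.41, 1.0 and 0.41 in controls, and at 0.16, 0.12 and -1.74 under cold at 3 h, against -0.07, -0.15 and -2.0. In experiment 3 the root cold and control arrays of 3 h were low together, so the paired cold changes at 3 h stayed small (mean 0.26), and the call was lost without pairing or without experiment 3. Leaf cold changes of InvCD141 were -0.45 at 27 h and 0.52 at 3 h, neither called, and at 9 h the difference of leaf minus root was -2.14 (SE 0.31, limma adjusted p = 0.00327).

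AMYA1, an alpha-amylase that degrades starch, had cold changes of 0.97 in leaf at 27 h and 1.27 at 3 h, and 0.48 in root at 27 h and -0.51 at 3 h (spot 155196, its single tested spot; interaction -1.29, SE 0.35, limma adjusted p = 0.0231). UGPase, which makes UDP-glucose, was called positive on all 4 spots, with medians of -0.06 in leaf at 27 h and -0.53 at 3 h, and -0.48 in root at 27 h and 0.13 at 3 h. GAPDH, a glycolytic dehydrogenase, was called positive on 6 of 9 spots, and its 5 clones had mean interactions from 0.86 to 1.28. Median cold changes of GAPDH were 0.49 in leaf at 27 h and -0.33 at 3 h, against -0.38 and -0.03 in root, so here leaf carried more of the contrast. TPT, the triose phosphate translocator of plastids, had 1 clone at 1.21 with both spots called and another at -0.05 with none. Starch synthesis genes were not called: GBSS had a median interaction of 0.08, SS2 of 0.37, agpS2 of 0.00 and agpS3 of -0.46. Quantile scaling ended the calls of the InvCD141, AMYA1, UGPase and GAPDH spots nearest each gene's median. In all, 8 of 24 alternatives ended the call of the AMYA1 spot (adjusted p up to 0.184), 8 of 23 that of the GAPDH spot (adjusted p up to 0.233) and 3 of 24 each those of UGPase and InvCD141.

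Of the photosystem genes 2 were tested. The psbP gene, for a protein of the oxygen-evolving complex, was called positive on 3 of 4 spots. Its spot 145613 was at -2.64, -2.25 and -1.69 in root under cold at 27 h, against -0.49, -0.07 and -0.06 in controls, and at -1.15, -0.84 and -0.51 under cold at 3 h, against -0.28, -0.04 and 0.03. In leaf 2 experiments had cold values, -1.09 and -0.81 at 27 h and -1.09 and -0.69 at 3 h. The cold change was thus negative in both tissues, equal over time in leaf (-0.84 and -0.78) and larger at 27 h in root, with an interaction of 1.20 (SE 0.32, limma adjusted p = 0.024), a call that 8 of the alternatives ended, among them quantile scaling (0.63) and leaving out experiment 2. PSBR spots disagreed by clone: 1 of its 3 clones had -2.15 with both spots called and the others -0.03 and -0.11 with none.

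In the oxylipin and ethylene list 1 of 4 tested genes was called. HPL, hydroperoxide lyase, which makes volatile aldehydes from fatty acids, was at 1.04, 1.02 and 0.98 in leaf under cold at 27 h, against 0.00, -0.49 and 0.39 in controls (spot 133263). At 3 h its leaf arrays were at -0.43, -0.22 and 0.01 under cold, against -0.43, 0.20 and 0.44 in controls, so leaf was apart from control at 27 h alone. Root cold changes were 0.01 at 27 h and 0.09 at 3 h. The interaction was 1.41 (SE 0.35, limma adjusted p = 0.0133) and came from leaf, whose timing contrast was 1.33 (SE 0.24, limma adjusted p = 0.0117); it was lost without experiment 2 and with quantile scaling. The ethylene receptor ERS had a median of -0.11, the lipoxygenase POTLX-3 of 0.02 and StEBP1 of 0.59, none called.

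Among 7 protease inhibitor and wound genes, PIN2K, a proteinase inhibitor II, was called negative on both spots (spot 161183; -1.66, SE 0.34, limma adjusted p = 0.0051), with cold changes of -0.45 in leaf at 27 h and -0.14 at 3 h, and 0.42 in root at 27 h and -0.93 at 3 h. The acidic chitinase ChtA had the largest cold changes of the list without a called interaction: its medians were 4.32 in leaf at 27 h and 0.96 at 3 h, and 2.56 in root at 27 h and -0.31 at 3 h, so both tissues had the larger value at 27 h (median interaction 0.44, lowest limma adjusted p = 0.498). Of 7 translation and housekeeping genes, eIF5A4 (translation factor eIF5A; 4 of 5 spots) and TUBB (beta-tubulin; both spots) were positive, with medians of 1.11 and 1.13. Of 24 alternatives, 14 ended the call of the TUBB spot (0.58 to 1.19, adjusted p up to 0.362) and 2 each those of the PIN2K and eIF5A4 spots. Actin-97 was at -0.18 and the ribosomal protein RPL27 at 0.36, not called.

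Mitochondrial respiration had no called gene among 11 tested. Of 43 spots 1 was called, a spot of the complex I subunit CI-76kD. Beside this stand 16.6% of all tested spots and 21.5% of the tested spots paired with 1 gene. The list's median interaction was 0.24, near the 0.23 of all tested spots paired with 1 gene. UCP and ANT1 had medians of -0.18 and 0.16. Of 4 redox genes GRX2, a glutaredoxin, was called on 1 of 2 spots (spot 144791; 1.13, SE 0.32, limma adjusted p = 0.033), and in experiment 3 its cold values were missing except in root at 3 h. The call was ended by 6 of 21 alternatives (adjusted p up to 0.114). CAT1, a catalase, had a median of 1.14 that did not pass (lowest limma adjusted p = 0.222). The co-chaperone dnaJ was at -0.54 over 7 spots and the LEA gene Lea at -0.34 over 2, neither called, and the dehydrin CI7/ERD10C had no value on the 24 arrays. Regulators of the CBF family, aquaporins and nitrate transporters are not analysed here.

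**Figure D5:**
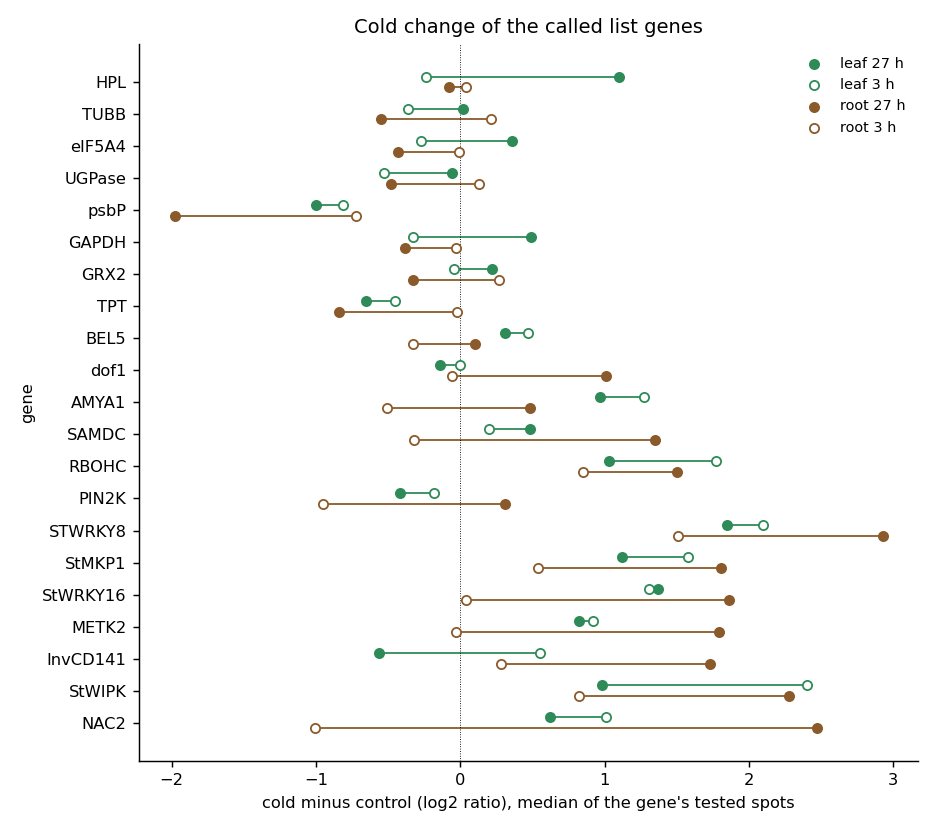
Cold change (cold minus control, log2 ratio, median of a gene's tested spots) of the 21 called genes of the functional lists, from the most positive interaction at the top to the most negative at the bottom; green is leaf, brown is root, filled symbols are 27 h and open symbols 3 h. From dof1 to NAC2 the root symbol of 27 h lies to the right of the root symbol of 3 h in each gene, while in psbP and UGPase it lies to the left.

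Sgt3 and LOC102602308 were the most positive annotated genes, and both were chosen after their values were seen. Sgt3, a glycosyltransferase of steroidal glycoalkaloid synthesis, was called on all 3 spots (median 2.22) and LOC102602308 on all 7 spots of 4 clones (median 2.33). On leaf arrays Sgt3 (spot 137567) was at 0.57, -0.30 and -0.38 under cold at 27 h, against -0.27, -0.30 and 0.16 in controls, and at -2.06, -1.78 and -1.74 under cold at 3 h, against -0.07, -0.71 and -1.09. Its leaf groups overlapped at 27 h and were apart at 3 h, where the cold change was -1.24 (SE 0.24, limma adjusted p = 0.00241). Root cold changes were -0.82 at 27 h, with 2 experiments, and 0.07 at 3 h. The interaction was 2.22 (SE 0.52, limma adjusted p = 0.0113). LOC102602308 (spot 142897; 2.67, SE 0.56, limma adjusted p = 0.00559) had cold changes of 0.27 in leaf at 27 h and -1.33 at 3 h, and -0.29 in root at 27 h and 0.79 at 3 h. In experiment 3 its root arrays of 3 h were at -0.25 under cold and -1.84 in the control, against 1.61 and 2.11 under cold and 1.44 and 1.51 in the controls of experiments 1 and 2. Spot 132094, which correlated with it at r = 0.96 over the 24 arrays, gave 2.52, and both genes lost the call with quantile scaling or without pairing.

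The same contrast was computed for heat and for salt, whose control arrays are those of cold, so the values are only set side by side. NAC2 was at -0.60 for heat and -0.97 for salt, StWIPK at -1.01 and -0.51, METK2 at -0.03 and 0.79, and HPL at 0.48 and 1.60, none of them called (limma). RSI5 had -1.02 for heat (SE 0.34, limma adjusted p = 0.958) and 1.33 for salt, also not called. Of the named spots 0 were called for heat. A value that was not called does not show that a gene lacks a heat interaction. For CO the salt value of -1.46 was called (SE 0.31, limma adjusted p = 0.023), and for heat it was 0.10. Of the 50 named spots tested for salt 5 were called (limma). The share called for salt over all spots is not given here, so this count describes the named spots alone. Spot 131922 had a called salt value of the other sign than for cold, 2.03 (SE 0.46, limma adjusted p = 0.0296) against -1.58. So had spots 134267 (-1.40 against 2.61) and 137374 (-1.62 against 2.50), which can be copies of 1 sequence. The eIF5A4 spot had 0.96 against 1.11.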

How the data were processed

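The authors deposited 1 table of log2 ratios for spotted 2-colour arrays, and per the submitters' processing notes limma was used, with no role or version; per the labels Cy3 marks the sample and Cy5 the pooled reference. For the scanner, background correction and normalization, settings were not given in the sources used here. RNA extraction is labelled both as a column kit and as phenol or trizol. No intensities were used, so the number of arrays limits the precision.

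Cold minus control differences of same-numbered arrays (12, in 4 tissue and time groups) were fitted with limma 3.58.1 (lmFit, eBayes) in R 4.3.3, on spots with at least 2 differences per group. P-values were adjusted over all 14688 spots by Benjamini-Hochberg, with a threshold of 0.05. The number marks an independent experiment and a shared reference pool per the labels, so it pairs arrays; deviations of cold and control arrays with 1 number correlated with r of 0.10 to 0.50. Nothing states that further steps, such as hybridization, were shared. On simulated data (14688 spots, 50 changed per size), interactions of 0.5, 1, 2 and 3 were recovered for 4%, 18%, 80% and 94%, with 4 false calls.

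Duplicate spots were inferred from row positions (15360 pairs), and all 905 clones listed on spots in the annotation table followed that layout. The table named 1 gene for 1630 spots, several for 180, which were not named, and none for 30638. All 430 symbols were in the RefSeq table of assembly SolTub_3.0. Named spots are the 8 most positive and 8 most negative called with 1 sign in all experiments, the 3 largest of each class by called contrasts, the 2 largest sign turns per tissue, with 1 spot of each duplicate pair within each such list, and for called genes of the lists the spot nearest the gene's median. The members and lists were chosen with earlier results of these data known, and the genes of the lists after the annotation table was seen. Alternatives were pairing, scaling, completeness, duplicates, the 9 h arrays, trend and robust fitting, and left-out arrays.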

Additional observations from a re-analysis of the deposited data

Results flagged for a closer look

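The test of leaf against root gave 2439 spots for the timing of the cold change and 981 spots for the cold change at 9 h. The named spots below passed the interaction test, each with its interaction in log2 units.

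Annotated genes with negative values were NAC2 at -3.88, RSI5 at -3.62, CO at -3.43, StWIPK at -2.91, InvCD141 at -2.35, METK2 at -2.10, StMKP1 at -1.66, PIN2K at -1.66, StWRKY16 at -1.56, STWRKY8 at -1.53, RBOHC at -1.40, dof1 at -1.34, SAMDC at -1.29 and AMYA1 at -1.29. Annotated genes with positive values were LOC102602308 at 2.67, Sgt3 at 2.22, HPL at 1.41, psbP at 1.20, GRX2 at 1.13, eIF5A4 at 1.11, UGPase at 1.09, GAPDH at 1.07 and TUBB at 0.95.

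Spots without a gene name and with negative values were 139768 at -6.95, 160126 at -6.69, 158852 at -6.62, 159282 at -6.40, 154669 at -6.29, 157880 at -5.78, 132086 at -5.75, 141133 at -5.54, 135066 at -5.32, 138019 at -3.05, 137636 at -3.02, 150545 at -2.84, 136640 at -2.70, 131922 at -1.58 and 161185 at -1.22. Those with positive values were 134267 at 2.61, 146597 at 2.58, 159088 at 2.54, 132094 at 2.52, 137374 at 2.50, 162332 at 2.46, 151602 at 2.45, 157262 at 2.29 and 157930 at 2.28. With 3 arrays per group no test for a single outlying array was made.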

How the results depend on the processing

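Of 51 named spots, 19 kept direction and side of the threshold under every alternative tried, and quantile scaling took 26 below the threshold. None of the spots called under an alternative had the opposite sign among the 2439. Quantile scaling left 424 interactions, 107 leaf and 877 root timing contrasts, cold changes of 2546 and 3073 spots in leaf and 3004 and 2028 in root at 27 and 3 h, and 47 leaf minus root differences at 9 h. It lowered the positive share of leaf timing contrasts to 26.2%. Without the replicate block of pairing, 1618 interactions and 335 leaf timing contrasts were called; with the experiment number as an added replicate block these were 2699 and 937, and root timing contrasts 4210. A single contrast per experiment gave 380 leaf timing contrasts. Averaging duplicate pairs, which leaves fewer features to test, gave 1496 interactions, 2348 root timing contrasts, and cold changes of 2506 and 2156 in leaf and 3717 and 1582 in root at 27 and 3 h.

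With 1 experiment or 1 pair of arrays left out, interactions numbered 753 to 2372, leaf timing contrasts 1 to 846, root timing contrasts 1661 to 4115, leaf minus root differences at 9 h 380 to 499, and cold changes 1585 to 4383 in leaf at 27 h, 1746 to 3706 in leaf at 3 h, 3857 to 6581 in root at 27 h and 846 to 2835 in root at 3 h. The lowest values for the interaction (753, 22.0% positive) and for leaf timing (1) were without experiment 2; the cause was not tested. Without experiment 1 and 3 the leaf timing contrasts were 138 and 449. Single pairs that changed a count of timing contrasts by over 1.5 times were leaf 27 h of experiments 1 and 2 (161 and 179 in leaf), leaf 3 h of experiments 1 and 2 (195 and 300) and root 3 h of experiment 3 (2602 in root). Interactions that were not called turned sign with arrays left out in single spots of PSBR, TPT and BEL5. The PSBR spot 142024 spanned -0.51 to 0.02 (-0.50 to 0.02 over whole experiments). The TPT spot 146352 spanned -0.52 to 0.29 (-0.33 to 0.29) and the BEL5 spot 148065 -0.17 to 0.42. These spots are of clones with no called spot, while another clone of each gene had both spots called. The 9 h fits with a block (915) and with experiments left out were chosen after seeing the data. The simulation recovered 18% of interactions of 1 log2 unit. It changed 50 spots per size, fewer than the 2439 called in the data, which can make its adjusted threshold stricter. Its recovery rates may therefore be too low for these data. A spot that was not called can still hold a 2-fold interaction.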
